A study of Mus musculus with 12 samples.

Results

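The Tcf4 locus was described as the regions of RNA enriched in an HP1γ immunoprecipitate (IP) over chromatin input that overlapped the span from 69500000 to 69850000 of mouse chromosome 18 (build mm9). The untreated list held 41 such regions of 10013 in all, and the list for cells treated with PMA held 10 of 2609. Its members were chosen by position alone, but the span itself was selected on the number of regions that the same lists show there. The number, width, fold and replicate support of its regions are therefore descriptions and carry no test. HP1γ (the product of Cbx3) was assayed by RNAchIP-seq in cells derived from mouse embryonic fibroblasts that lacked HP1γ and had been recomplemented for its expression. The labels name 4 groups of 3 replicates: input and HP1γ IP of untreated cells, and input and HP1γ IP of cells given 100 nM PMA (a phorbol ester that activates protein kinase C) for 30 min. All 12 libraries came from the recomplemented cells. No mock IP and no IP from cells without HP1γ was analysed here, so enrichment over input cannot be told apart from unspecific recovery of RNA. How far the cells keep fibroblast features could not be checked, since the lists hold no expression values.

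Tcf4 encodes a class I basic helix-loop-helix transcription factor, an E protein also known as E2-2 or ITF2, which binds E-box sequences as a homodimer or together with a tissue-restricted helix-loop-helix partner. Id proteins hold such factors off DNA. It is a different gene from Tcf7l2, the Wnt effector that is also called TCF4. Tcf4 is a long gene with large introns and many alternative first exons, and its unspliced transcript is read toward higher coordinates. HP1γ is a chromodomain protein of heterochromatin that is also found along the bodies of transcribed genes. In RNAchIP, RNA held on crosslinked, HP1γ-bound chromatin is sequenced, and the input chromatin gives the level to compare with. No gene annotation of mm9 was used, and the lists give no strand. The assignment to Tcf4 therefore rests on the span itself, and no region is placed in an exon, an intron or a UTR.

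Each region was joined from peaks called in single replicates, and its entry names these member peaks by replicate and number. Each has at least 3 of them. The fold of a region is the enrichment of IP over input given by the authors, read as a mean over its member peaks, and its −log10 q is read in the same way. Neither list gives a value or a read depth per library. Regions thus have no replicate error, and a difference between the 2 lists at a region could not be tested. Intervals below cover counting error over regions only, and neighbouring regions of a gene are not independent. The member peaks of the PMA list came from replicates 2 and 3 only, and those of the untreated list from all 3 replicates.

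HP1γ-enriched RNA of untreated cells was found along most of the Tcf4 span, but not evenly. The 41 regions covered 29.8 kb, or 8.52% of the span. No region lay in the first 50 kb, and the first one (69552913 to 69553432) had a fold of 2.71. The following bins of 50 kb held 2, 15, 6, 4, 4 and 10 regions, in order of rising coordinates. The bin from 100 to 150 kb into the span and the last bin thus held 25 of the 41. When regions less than 10 kb apart were taken as 1 group, the larger groups held 14 regions over 36.8 kb (69617756 to 69654595) and 9 regions over 16.4 kb near the end of the span (69820648 to 69837039). Regions filled 25.5% of the first of these groups and 48.5% of the second. The longest stretch without a region inside the occupied part ran for 24.6 kb, between 69578138 and 69602726. Neighbouring regions were a median of 2.31 kb apart, and 11 of 40 neighbours were less than 1 kb apart. The last region ended at 69837039, 13.0 kb before the end of the span.

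Fold enrichments at Tcf4 were low for the untreated list. Their median was 2.59 (95% order-statistic interval 2.49 to 2.74), against 3.65 (3.62 to 3.68) over the whole list, and 39 of 41 regions were below the median of the whole list. The lowest was 1.87 and the highest 4.47, and 8 regions reached a fold of 3. The highest fold belonged to a 763 bp region at 69617756 to 69618518, which opens the group of 14 and had no partner in the PMA list. Of the whole untreated list, 80.0% had a lower fold. Next came 3.87 at 69833530 to 69834162 in the end group, then 3.56 at 69653723 to 69654595, 3.42 at 69827183 to 69827863 and 3.35 at 69686149 to 69687042. The regions with 3.87, 3.56 and 3.42 overlapped a PMA region.

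By q value the order was different, and the end of the span came first. The mean −log10 q was 16.1 at 69833530 to 69834162, 10.2 at 69827183 to 69827863 and 8.09 at 69647706 to 69648375. The first of these exceeded 99.4% of the untreated list, although its fold exceeded only 59.2%. The median −log10 q at Tcf4 was 4.05 (3.14 to 4.52), next to 3.59 (3.54 to 3.64) for the whole list. A −log10 q of at least 3 was reached by 30 of 41 regions, where 63.5% of the whole list reached it. The weakest were neighbours, 69713968 to 69714621 at 1.26 and 69715762 to 69716294 at 1.11, both with a mean q weaker than 0.05.

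Widths ranged from 302 to 2395 bp, with a median of 633 bp (493 to 741) against 528 bp in the whole list. The widest regions lay in the end group, with 2395 bp at 69823730 to 69826124 and 2101 bp at 69828226 to 69830326. The former was wider than 99.7% of the untreated list and the latter wider than 99.6%. Next in width was a region of 1239 bp at 69736058 to 69737296, outside either large group.

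**Figure D1:**
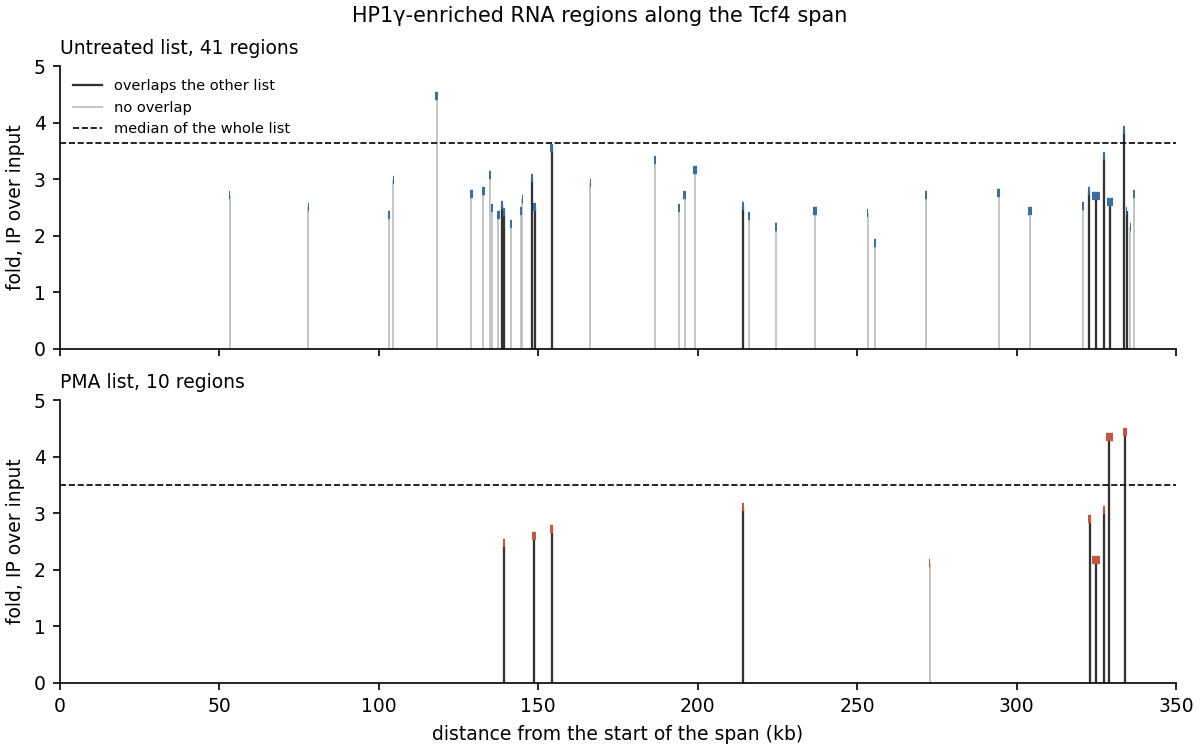
Fold enrichment of IP over input (y axis) of each region against its distance from the start of the Tcf4 span in kb (x axis), for the 41 untreated regions (top) and the 10 PMA regions (bottom). Coloured bars are as wide as the regions, dark stems mark regions that overlap the other list, pale stems those that do not, and dashed lines are the medians of the whole lists. The first 50 kb are empty in both lists, and the PMA regions with folds of 4.36 and 4.44 lie in the last 50 kb.

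Every untreated region at Tcf4 had a member peak in each of the 3 replicates, 41 of 41 (100%, exact 95% interval 91.4 to 100). In the whole untreated list 91.9% of regions had such peaks, a share inside that interval. The members numbered 52, 48 and 54 from replicates 1, 2 and 3, so no replicate supplied most of them. Exactly 1 peak per replicate had been joined in 25 regions. The other 16 (39.0%, 24.2 to 55.5) held more than 3 member peaks, next to 22.5% of the whole list. The 2 widest regions had the most: 9 at 69828226 to 69830326, of which replicate 3 gave 5, and 8 at 69823730 to 69826124, of which replicate 2 gave 4. A region at 69602727 to 69603467 had 2 peaks from each replicate. Regions with many member peaks are stretches that the peak caller divided in at least 1 replicate, and their fold is a mean over the pieces.

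After PMA, the 10 regions of the span stood in 2 groups and 2 single places. They covered 12.2 kb, or 3.49% of the span. The first group held 3 regions, with folds of 2.47 (69638909 to 69639631), 2.59 (69648169 to 69649281) and 2.72 (69653643 to 69654709). This group started inside the untreated group of 14 and ended just past it, at 69654709 against 69654595. A region at 69713770 to 69714496 with a fold of 3.11 stood alone, 59.1 kb after the first group, the longest stretch between PMA regions. Another at 69772512 to 69772992 was the narrowest at 481 bp and the weakest, with a fold of 2.11 and a −log10 q of 2.89.

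The other 5 PMA regions lay within 12.3 kb near the end of the span and covered 66.2% of that stretch. Their folds were 2.89 (69822410 to 69823502), 2.17 (69823654 to 69826199), 3.06 (69826968 to 69827818), 4.36 (69827977 to 69830331) and 4.44 (69833405 to 69834679), in order of position. The last had a −log10 q of 26.8, the second highest of the 2609 PMA regions, and the one before it 21.8, the 11th highest. Their folds exceeded 83.4% and 81.1% of the PMA list. These were the only PMA regions at Tcf4 above the median fold of the list, 3.50. The median fold of the 10 regions was 2.81 (2.17 to 4.36). With 3 member peaks still required, 1 region was left without PMA replicate 2, at a fold of 4.36, and 1 without PMA replicate 3, at 2.17. A single replicate then had to give all 3 peaks. Every region of the PMA list had peaks of both replicates. Only those with more than 3 member peaks could thus be left, at most 16.4% of the list. The median width of the 10 regions was 1080 bp (723 to 2355) against 780 bp in the whole list, with 2546 and 2355 bp for the widest. Each had member peaks from replicates 2 and 3, and 3 of 10 had more than 3 member peaks, where 16.4% of the PMA list had.

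Most PMA regions at Tcf4 lay on an untreated region, and most untreated regions had no PMA partner. An overlap of 1 bp or more with an untreated region was found for 9 of the 10 PMA regions (90%, 55.5 to 99.7), next to 54.8% of the whole PMA list. The exception was 69772512 to 69772992, which was 698 bp from the nearest untreated region. Of the 41 untreated regions 12 overlapped a PMA region (29.3%, 16.1 to 45.5), next to 15.5% of the whole untreated list. Such shares depend on how densely the regions of the other list are packed, and the span was chosen for its packing. Neither share is thus a result about Tcf4. Partners made up 6 of the 10 untreated regions in the last 50 kb, 4 of the 15 between 100 and 150 kb, and 2 of the other 16. The 12 untreated regions with a partner had a median fold of 2.64 (range 2.43 to 3.87) and the 29 without 2.52 (1.87 to 4.47). The range of the former lay inside that of the latter. Their median widths were 662 and 512 bp, and wider regions have more room to overlap.

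The 9 PMA regions formed 12 pairs with untreated regions, as 3 of them spanned 2 untreated regions each. Fold was higher after PMA in 7 of 12 pairs, where 45.9% of all 1572 pairs of the lists had the higher fold after PMA. The ratio of the PMA to the untreated fold had a median of 1.02 and ran from 0.764 to 1.83. The −log10 q was higher after PMA in 9 of 12 pairs, where 73% of all pairs were. Both shares were near the background. The pairs with the largest differences were at the end of the span. At 69827977 to 69830331 the PMA fold was 4.36 and the untreated fold 2.59, with −log10 q values of 21.8 and 5.29. The untreated region there was the mean of 9 member peaks and the PMA region of 4, so these folds average differently divided stretches. At 69833405 to 69834679 the PMA fold was 4.44, and the same PMA region overlapped untreated regions with folds of 3.87 and 2.43. The lowest ratio, 0.764, was found at 69653643 to 69654709, with folds of 2.72 after PMA and 3.56 untreated. The wide region at 69823654 to 69826199 had a fold of 2.17 after PMA and 2.70 untreated. The weak untreated region at 69713968 to 69714621 (fold 2.52, −log10 q 1.26) was overlapped by a PMA region with 3.11 and 6.26.

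**Figure D2:**
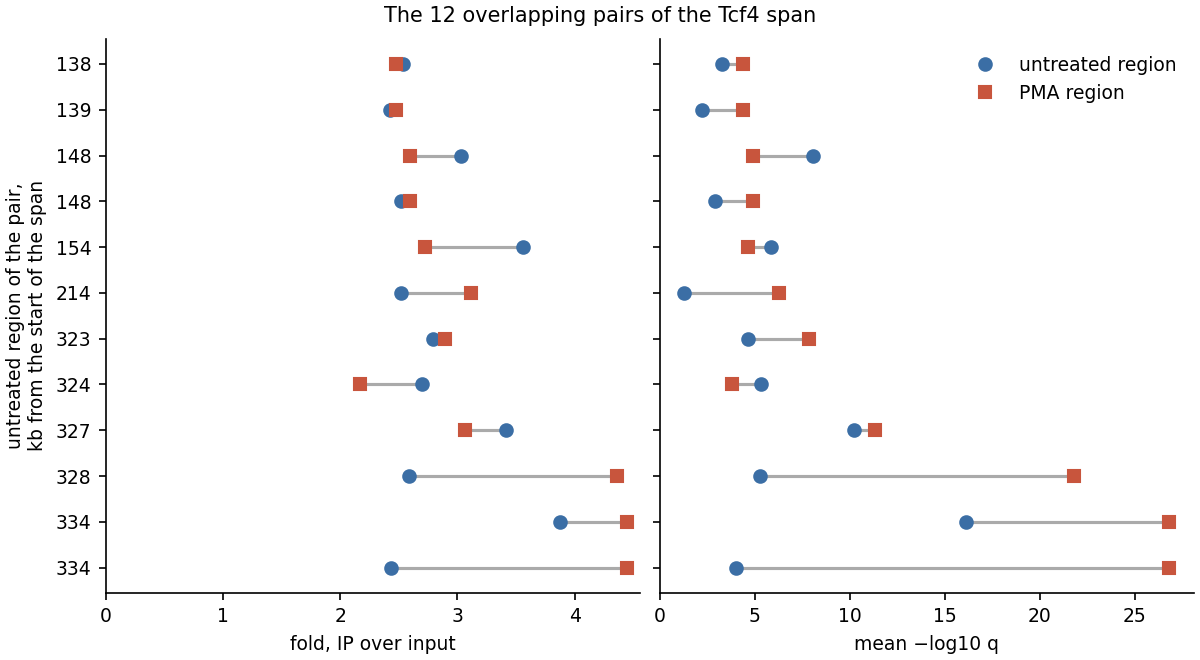
Fold enrichment (left) and mean −log10 q (right) of the 12 overlapping pairs, with the untreated region of each pair as a circle and the PMA region as a square, ordered by the distance of the untreated region from the start of the span in kb (y axis). The pairs at 328 and 334 kb have the highest PMA values, and a PMA region that overlaps 2 untreated regions is drawn in both pairs.

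The peaks called in the replicates were counted beside the regions. Member peaks carry the number the peak caller gave them, and from region to region these numbers rise along each chromosome with no exception in either list. The difference between the first and the last member peak in a stretch therefore counts the peaks called there, also those that joined no region. From the first to the last PMA region, a stretch of 195.8 kb, untreated replicates 1, 2 and 3 had 80, 55 and 75 called peaks. PMA replicates 2 and 3 had 60 and 122. PMA replicate 2 thus lay within the range of the untreated replicates and PMA replicate 3 above it. The same stretch held 29 untreated and 10 PMA regions. Of the 210 untreated peaks there 110 were members of a region (52.4%), and of the 182 PMA peaks 34 (18.7%). These shares are not like for like, as a region needs 3 member peaks. In the untreated list 1 peak per replicate is enough, and in the PMA list 1 of the 2 replicates must give at least 2. The lists as a whole differed in the same direction. Of all peaks called in untreated replicates 1, 2 and 3, at most 13.6%, 27.1% and 31.3% were members of a region, and of those in PMA replicates 2 and 3 at most 8.85% and 4.34%. In the stretch at Tcf4 PMA replicate 2 had 31.7% of its peaks joined and PMA replicate 3 had 12.3%, above those of the list. The span was chosen for its joined regions and the stretch is bounded by them, so this is no result about Tcf4. Per 1000 peaks called in a replicate, this stretch held 0.916, 1.35 and 2.24 in the untreated replicates and 1.21 and 1.32 in the PMA replicates. The totals behind these values are the highest peak number in each list, a least number of calls. Read depth is unknown, and why the PMA list held fewer regions here was not tested.

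The share of called peaks that were joined was also counted along the gene. The stretches were bounded by the groups of PMA regions. A high PMA share inside a group and a low one between groups therefore follow from the cut. The joining rule also differs between the lists, as given above. In the end group of the PMA list (69822410 to 69834679) 18 of 21 PMA peaks and 29 of 34 untreated peaks were members of a region. Each replicate, untreated or treated, had called 10 to 12 peaks there. In the 167.7 kb between the 2 PMA groups, 57, 30 and 50 peaks had been called in the untreated replicates and 39 and 99 in the PMA replicates. These gave 15 untreated regions with 55 of 137 peaks as members, and 2 PMA regions with 6 of 138 (4.35%), near the 4.34% and 8.85% of the whole PMA list. The untreated share there, 40.1%, was above those of the whole untreated list, in a span chosen for its number of regions. Over the first PMA group the members were 26 of 39 untreated and 10 of 23 PMA peaks. The positions of peaks that joined no region are not in the lists, so whether those of PMA replicates 2 and 3 overlapped was not tested.

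**Figure D3:**
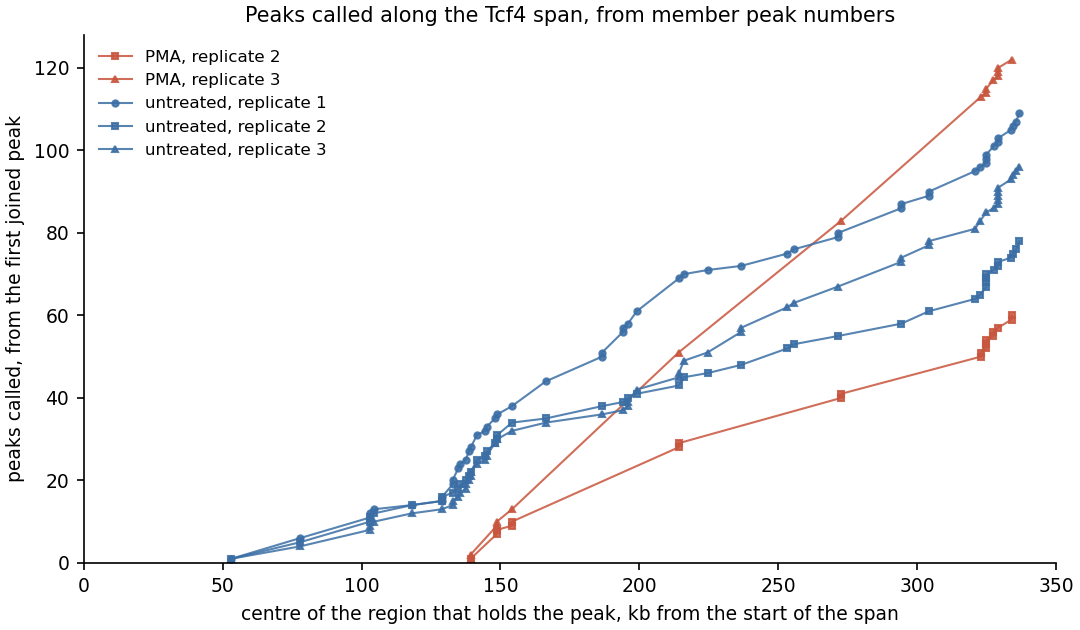
Running number of peaks called in each replicate (y axis, counted from its first member peak in the span) against the centre of the region that holds the member peak, in kb from the start of the span (x axis). Blue lines are untreated replicates, red lines PMA replicates, and each marker is a member peak. PMA replicate 3 climbs to 122 with few markers between 154 and 322 kb, where 99 of its peaks were called and 2 were joined.

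In the lists as deposited, the ratio of untreated to PMA region numbers was 4.10 at Tcf4 and 3.84 over all regions, and for base pairs covered 2.44 and 2.59. The span thus held 4.09 of every 1000 untreated regions and 3.83 of every 1000 PMA regions. The untreated list was joined from 3 replicates and the PMA list from 2, so 1 peak per replicate reaches the minimum of 3 member peaks in the untreated list only. When the member peaks of untreated replicate 1, 2 or 3 were left out, 13, 15 and 11 of the 41 untreated regions still had 3, next to 10 PMA regions. These reduced lists held 1505, 1988 and 2367 regions in all, fewer than the PMA list, and 8.64, 7.55 and 4.65 of every 1000 of them lay at Tcf4. These values were above the 3.83 after PMA, by more than 1.5 times without replicate 1 or 2 but not without replicate 3. The reduced regions kept bounds joined over all 3 replicates, unlike the PMA regions, and the span was chosen for its number of regions. A change at Tcf4 beyond that of the lists was not tested. In the untreated list shortened to 2609 regions by −log10 q, 10 lay at Tcf4, as many as after PMA. Against the untreated lists without replicate 1, 2 or 3, a partner was found for 5, 4 and 3 of the 10 PMA regions, where 19.7%, 22.5% and 25% of the whole PMA list had one.

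Below the span the lists were empty over a long distance, and above it they were not. The nearest region below it was 1025 kb away in the untreated and 1083 kb in the PMA list, and neither list had a region in the 350 kb before the span. Above it, an untreated region of fold 2.67 lay 1.15 kb beyond the end (69851146 to 69851697), and the nearest PMA region 250.6 kb beyond. The 350 kb after the span held 10 untreated regions with a median fold of 3.29 and 3 PMA regions with 3.51, where the median tile of 350 kb along the genome held 0 in either list. In the RefSeq gene table of another build, GRCm38, the next protein-coding gene after Tcf4 is Ccdc68, beyond 3 lncRNA genes and a pseudogene, and the preceding entries are a pseudogene and lncRNA genes.

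Among fixed tiles of 350 kb along the genome, 2 of 7529 held at least as many untreated regions as the Tcf4 span and 11 at least as many PMA regions. The span was chosen for its number of regions, and a fixed tile can split a dense stretch, so these counts do not rank Tcf4. A search for windows with free starts elsewhere was stopped at 3, and each held more untreated regions than Tcf4. The fullest windows of the same length elsewhere were on chromosome 17 (3218449 to 3568449), with 59 untreated and 13 PMA regions, chromosome 14 (69860968 to 70210968), with 56 and 16, and chromosome 15 (63913826 to 64263826), with 51 and 6. Their median untreated folds, 2.84, 2.66 and 2.96, were also below that of the whole list, as at Tcf4. Their untreated regions had member peaks in all replicates in 96.6%, 96.4% and 96.1% of cases. More than 3 member peaks were found in 28.8%, 42.9% and 19.6% of them, on both sides of the 39.0% at Tcf4. Of their untreated regions 20.3%, 23.2% and 7.84% had a PMA partner, and of their PMA regions 84.6%, 75% and 66.7% an untreated one. The intervals of these shares overlapped those of Tcf4 for each window, but overlap does not show that the shares were alike. In the chromosome 15 window the untreated share was 7.84% (2.18 to 18.9), next to 29.3% (16.1 to 45.5) at Tcf4. The span and the windows were all chosen for their number of regions, so a difference in these shares was not tested. The highest −log10 q of a PMA region was 16.2, 10.4 and 5.84 in these windows, below the 26.8 at the end of Tcf4. The latter was also the highest of the 98 PMA regions on chromosome 18. For untreated regions the highest −log10 q was 13.6, 19.8 and 18.4, on both sides of the 16.1 at Tcf4. The highest PMA fold was 4.44, 3.96 and 3.65 in the windows, next to 4.44 at Tcf4.

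**Figure D4:**
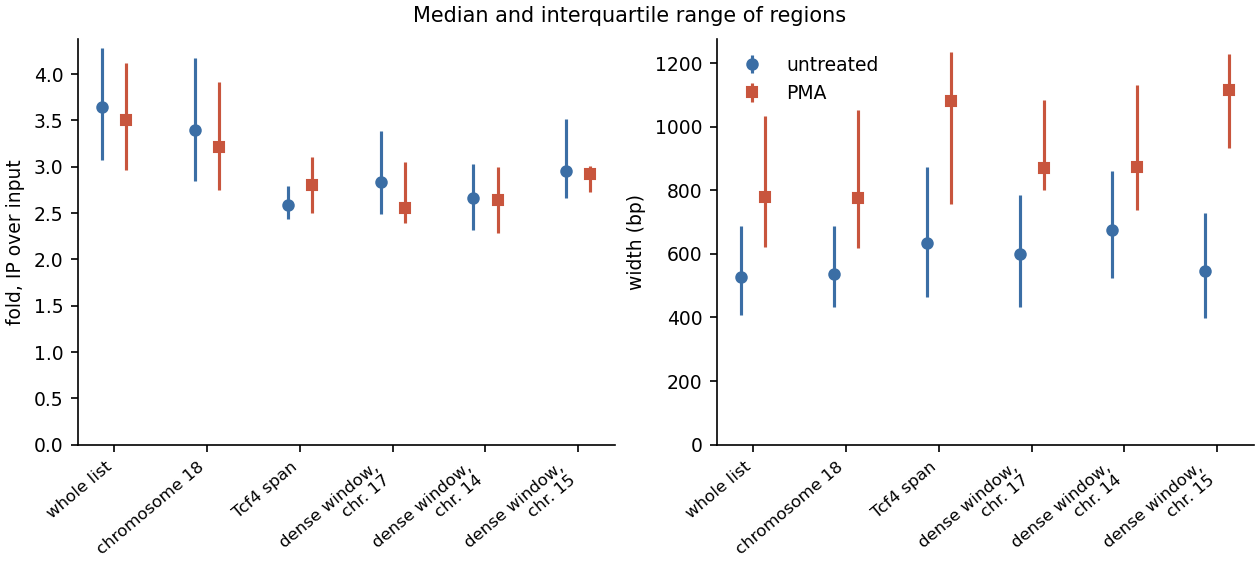
Median (symbol) and interquartile range (bar) of fold enrichment (left) and of width in bp (right) for regions of the whole lists, chromosome 18, the Tcf4 span and the 3 fullest windows of 350 kb elsewhere, untreated as circles and PMA as squares. Folds at Tcf4, with medians of 2.59 and 2.81, and in the 3 windows are below those of the whole lists, 3.65 and 3.50. PMA regions are the wider ones in every set drawn, but the lists were joined from 2 and 3 replicates. At Tcf4 the untreated median width was 633 bp as deposited and 902 to 940 bp for regions with 3 member peaks without 1 replicate, next to 1080 bp after PMA. The regions behind the 902 to 940 bp all had more than 3 member peaks as deposited and kept bounds joined over all 3 replicates. Why PMA regions were wider was not tested.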

How the data were processed

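Libraries were directional total RNA, read as 65 bp single ends, per the labels' protocols. MACS2 2.1.0, STAR 2.5.0a, cutadapt 1.11, deepTools, featureCounts 1.4.6-p3 and mm9 are named, without roles or settings, per the submitters' processing notes. The authors deposited 2 lists in narrowPeak layout with a score, a fold (a ratio of IP over input) and a −log10 q per region. These were read as means over member peaks: the score times the number of member peaks comes within 0.001 of a whole number in all 10013 and 2609 regions, and for the other columns this was carried over and not tested. The score and the mean summit offset were not used further. Read depth is unknown.

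Regions, overlaps (at least 1 bp), medians and shares (exact Clopper-Pearson intervals) were computed with scipy 1.17.1, numpy 2.4.6 and pandas 2.3.3 under Python 3.11.15, and drawn with matplotlib 3.10.9. The code was tested on simulated lists. Starts are printed 1-based. In each list the named regions are the first and last, the bounds of the longest gap, the 3 widest, the 3 with the highest −log10 q and the 5 with the highest fold, besides all overlapping pairs and PMA regions without a partner. Others were named after their values were seen (the weakest q, a region with 6 member peaks). The span, its members and the alternatives were chosen with earlier results of these data known. Groups, dense windows and counts from peak numbers were set after the lists were seen. Planned E protein and Id genes were not placed, since no annotation of mm9 was used.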

Additional observations from a re-analysis of the deposited data

How the results depend on the processing

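Of 81 alternative values for 9 results, 53 stayed within 1.5 times a count or within the interval of a median or share, and 28 did not. The share of untreated regions with member peaks of all replicates used was 100% throughout, but no alternative that takes a subset, joins regions or leaves out a replicate could lower it, so these values say nothing of stability. Widening the span, which could, added only 1 untreated region. Without 1 untreated replicate, 11 to 15 untreated regions were left, with a median width of 902 to 940 bp and bounds still joined over all replicates, and 3 to 5 regions of either list had a partner. Without 1 PMA replicate, all 3 member peaks had to come from the other one, which at most 16.4% of the PMA list could meet. A single region was then left, 1 PMA and 1 untreated region had a partner, the median width was 2355 to 2546 bp and the median PMA fold 2.17 to 4.36. With the untreated list shortened to the length of the PMA list, 10 untreated regions were left, with a median fold of 3.25, a median width of 818 bp and 6 with a partner. Joining regions less than 1 kb apart gave an untreated width of 883.5 bp and 7 untreated regions with a partner. It was not run for fold, which a joined region lacks. Narrowing the span by 50 kb on both sides left 5 PMA regions, 4 with a partner, and 6 untreated regions with one. No paired analysis was possible because the lists hold no values per library. Depth is unknown and sets no limit that can be given.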
